A study of Rattus norvegicus with 9 samples.

Results

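The epithelial sodium channel ENaC and the corticosteroid machinery that controls it are described here through 10 transcripts of rat kidney, chosen by name from the 19367 genes in the deposited table. No threshold on their values was used, but earlier results of these data were known when they were chosen. They are the channel subunits Scnn1a, Scnn1b and Scnn1g, the ubiquitin ligase gene Nedd4l, the protease gene Prss8, the steroid-induced genes Sgk1 and Tsc22d3, the mineralocorticoid receptor gene Nr3c2, the glucocorticoid receptor gene Nr3c1, and Hsd11b2, which encodes the enzyme that inactivates corticosterone. All 10 were in the table, and all 10 passed the filter on low values that left 13127 genes to be tested.

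Kidney RNA was sequenced from 3 groups with 3 libraries each. The first were untreated WKY rats, the normotensive Wistar-Kyoto strain, and the second untreated SHR, the spontaneously hypertensive strain. The third were SHR that were fed dapagliflozin, an inhibitor of the glucose carrier SGLT2, daily over 8 weeks at a dose of 10 mg/kg. All rats were 3 months old at the start, and the untreated groups had distilled water in place of the drug per one label and saline per another; the strain label reads Wistar-Kyoto throughout, so titles gave the groups. Libraries are not tied to named animals, and p-values measure only the spread between these libraries, which may in part be technical. Levels are given as FPKM, a read density per length of transcript and per library, so different genes can be set side by side.

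ENaC sits in the apical membrane of the connecting tubule and of the collecting duct's principal cells, where it takes up sodium as a channel of an alpha, a beta and a gamma subunit. Aldosterone acts through the mineralocorticoid receptor, which induces the kinase SGK1 and the alpha subunit, and SGK1 phosphorylates NEDD4-2, the product of Nedd4l, so that it no longer marks the channel for removal. Corticosterone binds the same receptor, and 11-beta-hydroxysteroid dehydrogenase type 2 (Hsd11b2) protects the receptor by converting corticosterone to an inactive form. Prostasin, the product of Prss8, takes part in the proteolytic activation of the channel.

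Promoter sequences are shown for 2 pairs of genes whose levels are compared later: the neighbouring subunit genes Scnn1b and Scnn1g, and the steroid-induced genes Sgk1 and Tsc22d3. Each runs 5′ to 3′ from 250 bases before to 50 after the start that RefSeq gives on the build GRCr8, and other starts of the same gene are not covered. The capitals mark the GC box GGGCGG, on either strand, and the TATA motif TATAAA, on either strand.
Scnn1b (chr1:185861126-185861425, strand plus): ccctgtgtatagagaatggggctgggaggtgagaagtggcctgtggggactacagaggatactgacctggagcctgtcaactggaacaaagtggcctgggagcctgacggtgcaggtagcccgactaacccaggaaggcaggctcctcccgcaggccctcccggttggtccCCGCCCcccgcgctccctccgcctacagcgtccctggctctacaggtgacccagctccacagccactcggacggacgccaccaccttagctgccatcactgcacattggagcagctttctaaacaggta
Scnn1g (chr1:185735975-185736274, strand plus): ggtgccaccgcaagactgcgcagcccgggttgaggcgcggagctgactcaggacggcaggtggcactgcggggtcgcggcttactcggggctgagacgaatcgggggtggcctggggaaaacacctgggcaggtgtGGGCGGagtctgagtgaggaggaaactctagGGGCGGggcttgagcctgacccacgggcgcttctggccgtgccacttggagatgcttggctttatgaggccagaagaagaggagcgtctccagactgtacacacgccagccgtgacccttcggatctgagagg
Sgk1 (chr1:24807182-24807481, strand minus): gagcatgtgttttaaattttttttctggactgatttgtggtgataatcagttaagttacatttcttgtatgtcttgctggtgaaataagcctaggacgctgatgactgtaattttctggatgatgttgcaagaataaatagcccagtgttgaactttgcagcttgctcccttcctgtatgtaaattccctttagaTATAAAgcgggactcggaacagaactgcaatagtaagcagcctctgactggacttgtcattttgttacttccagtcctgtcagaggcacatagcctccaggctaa
Tsc22d3 (chrX:109066340-109066639, strand minus): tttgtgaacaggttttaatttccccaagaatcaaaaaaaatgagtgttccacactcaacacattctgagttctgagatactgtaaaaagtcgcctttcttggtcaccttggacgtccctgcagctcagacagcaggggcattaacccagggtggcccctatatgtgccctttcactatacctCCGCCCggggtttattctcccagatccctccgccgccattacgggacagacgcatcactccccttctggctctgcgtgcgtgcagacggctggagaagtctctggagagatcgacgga

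The same table held windows for Nedd4l and Nr3c1, which makes 6 of the 10 genes; Scnn1a, Prss8, Nr3c2 and Hsd11b2 had none. The hormone response half-site TGTTCT and the spaced core ACANNNTGT, both searched on both strands, matched in 0 of these 6 windows, while 20.7% and 6.86% of the 33469 RefSeq windows of this length held a match. A GC box was found in 5 of the 6 windows (6 times in Nedd4l, 2 times in Scnn1g and 1 time each in Scnn1b, Nr3c1 and Tsc22d3), against 33.1% of all windows with at least 1. Sgk1 had a TATA motif, as did 14.2% of all windows, and its window was the poorest of the 6 in G and C (40.7%), against 62.7% for Scnn1b, 65.0% for Scnn1g and 52.0% for Tsc22d3. No protein-coding gene lies between Scnn1b and Scnn1g in the reference. A match is a stretch of letters, and binding was not measured here.

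The ENaC subunits stood at their lowest in WKY and at their highest in treated SHR. Scnn1a, the alpha subunit, measured 40.4, 80.04 and 46.4 FPKM in WKY libraries 1 to 3, 95.7, 89.2 and 91.8 in SHR off the drug, and 112, 156 and 241 in SHR on it. No 2 of the 3 groups overlapped, although WKY library 2 came close to the untreated SHR. Scnn1b, the beta subunit, measured 54.99, 89.6 and 54.0 FPKM in the WKY libraries, 99.7, 87.5 and 137 in SHR off the drug, and 155, 215 and 275 in SHR on it. Here WKY library 2 lay above the lowest untreated SHR library, and the treated libraries lay above all others. Scnn1g, the gamma subunit, measured 25.0, 41.5 and 25.2 FPKM in the WKY libraries, 50.5, 46.0 and 66.2 in SHR off the drug, and 81.4, 89.0 and 141 in SHR on it. Its groups did not overlap in any comparison, and treated library 3 was the highest of all libraries for each of the subunits.

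**Figure D1:**
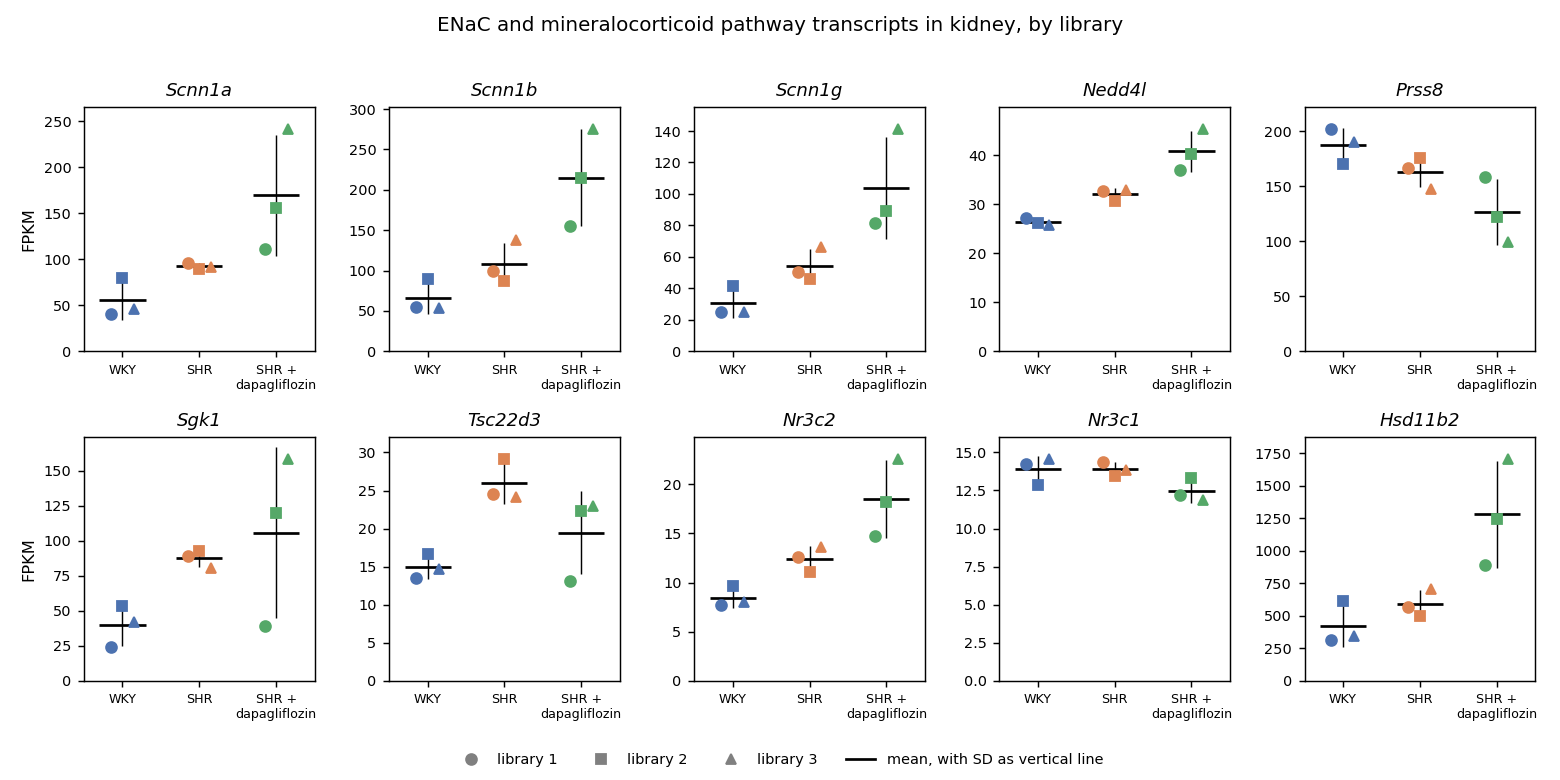
FPKM of the 10 genes in each library (circle, square and triangle for libraries 1, 2 and 3), with the group mean as a horizontal bar and the SD as a vertical line (n = 3 per group); each panel has its own axis starting at 0. The subunits and Hsd11b2 climb from left to right, up to 1707 FPKM for Hsd11b2 in treated library 3, whereas Nr3c1 stays between 11.9 and 14.6 FPKM.

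Between treated SHR and WKY the rise of the subunits passed the test. It was 3.00-fold for Scnn1a (log2 change 1.58, SE 0.30, adjusted p = 0.0123 in limma), 3.22-fold for Scnn1b (1.69, SE 0.27, adjusted p = 0.00706) and 3.32-fold for Scnn1g (1.73, SE 0.26, adjusted p = 0.00584). Folds and log2 changes throughout are on the scale of log2(FPKM + 1). Untreated SHR against WKY gave 1.72-fold, 1.64-fold and 1.78-fold, and these did not pass (adjusted p = 0.207, 0.197 and 0.139 in limma). Treated against untreated SHR gave 1.74-fold, 1.96-fold and 1.87-fold, which did not pass either (adjusted p = 0.295, 0.281 and 0.281 in limma). These comparisons share libraries, so their values are not independent of one another.

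The subunits kept to a narrow range of ratios within a library. Scnn1b stood at 0.980 to 1.496 times Scnn1a over the 9 libraries, and Scnn1g at 0.515 to 0.730 times Scnn1a. As group means the FPKM ratio of Scnn1b to Scnn1a was 1.22 ± 0.13 in WKY, 1.17 ± 0.28 in untreated SHR and 1.30 ± 0.14 in treated SHR (SD, n = 3), and the groups overlapped. The ratio of Scnn1g to Scnn1a was 0.561 ± 0.053, 0.588 ± 0.116 and 0.629 ± 0.087, also with overlap. In log2 terms the group difference of either ratio lay between -0.07 and 0.17, with exact two-sided permutation p between 0.4 and 0.9, in a design of 3 against 3 whose smallest possible p is 0.1. Across those libraries the gamma subunit was thus the least abundant transcript of the channel in each of them.

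Nedd4l, whose product takes ENaC off the membrane, was among the tightest of the genes. It measured 27.1, 26.1 and 25.8 FPKM in the WKY libraries, 32.6, 30.7 and 32.9 in SHR off the drug, and 36.9, 40.2 and 45.3 in SHR on it. The 3 groups did not overlap. Between treated SHR and WKY it rose 1.52-fold (log2 change 0.61, SE 0.08, adjusted p = 0.00395 in limma), a smaller change than that of the channel subunits. The step from WKY to untreated SHR was 1.21-fold (adjusted p = 0.132) and that from untreated to treated SHR 1.26-fold (adjusted p = 0.281), neither of which passed in limma.

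Prss8, the prostasin gene, went the other way. It measured 202, 170 and 190 FPKM in the WKY libraries, 167, 175 and 147 in SHR off the drug, and 159, 122 and 99.5 in SHR on it. Treated libraries lay below all WKY libraries, and treated library 1 lay within the range of untreated SHR. The fall between treated SHR and WKY passed the test (0.667-fold, log2 change -0.58, SE 0.16, adjusted p = 0.0333 in limma) but not when WKY library 1 or 3, SHR library 1, or treated library 2 or 3 was left out (adjusted p between 0.0537 and 0.106), nor in a fit of only these 2 groups (0.0768). Against untreated SHR the treated value was 0.766-fold (adjusted p = 0.314). The 3 genes whose pattern over the libraries was most like that of Prss8 were Blvra, Slc5a11 and Nit2, at Pearson's r of 0.993, 0.992 and 0.990.

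Sgk1, the kinase that aldosterone and glucocorticoids induce, measured 24.1, 53.3 and 42.0 FPKM in the WKY libraries and 89.0, 92.8 and 80.5 in SHR off the drug. The treated libraries were spread over 39.2, 120 and 158 FPKM. Treated library 1 thus lay within the WKY range, while libraries 2 and 3 lay above all untreated rats. Untreated SHR stood 2.27-fold above WKY (log2 change 1.18, SE 0.47) without overlap, which did not pass (adjusted p = 0.218 in limma); it passed without treated library 1, which enters that fit only through the shared estimate of spread (adjusted p = 0.0416). Treated against untreated SHR gave a log2 change of 0.06 with a 95% interval of -1.01 to 1.13, a range that spans changes of about that size in either direction. Treated SHR against WKY gave 2.36-fold (adjusted p = 0.0847), and without treated library 1 the log2 change was 1.84 (adjusted p = 0.0035).

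Tsc22d3, which encodes the glucocorticoid-induced leucine zipper GILZ, measured 13.6, 16.6 and 14.7 FPKM in the WKY libraries, 24.6, 29.2 and 24.2 in SHR off the drug, and 13.1, 22.4 and 22.9 in SHR on it. Untreated SHR were higher than both other groups without overlap, and treated library 1 was the lowest of the 9. The difference of 1.69-fold between untreated SHR and WKY did not pass with all libraries (log2 change 0.76, SE 0.19, adjusted p = 0.0815 in limma). It passed in a fit of only these 2 groups (adjusted p = 0.0121) and in a fit without treated library 1 (adjusted p = 0.00552). Treated SHR stood at 0.741-fold the untreated level (log2 change -0.43, 95% interval -0.87 to 0.01, adjusted p = 0.331).

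**Figure D2:**
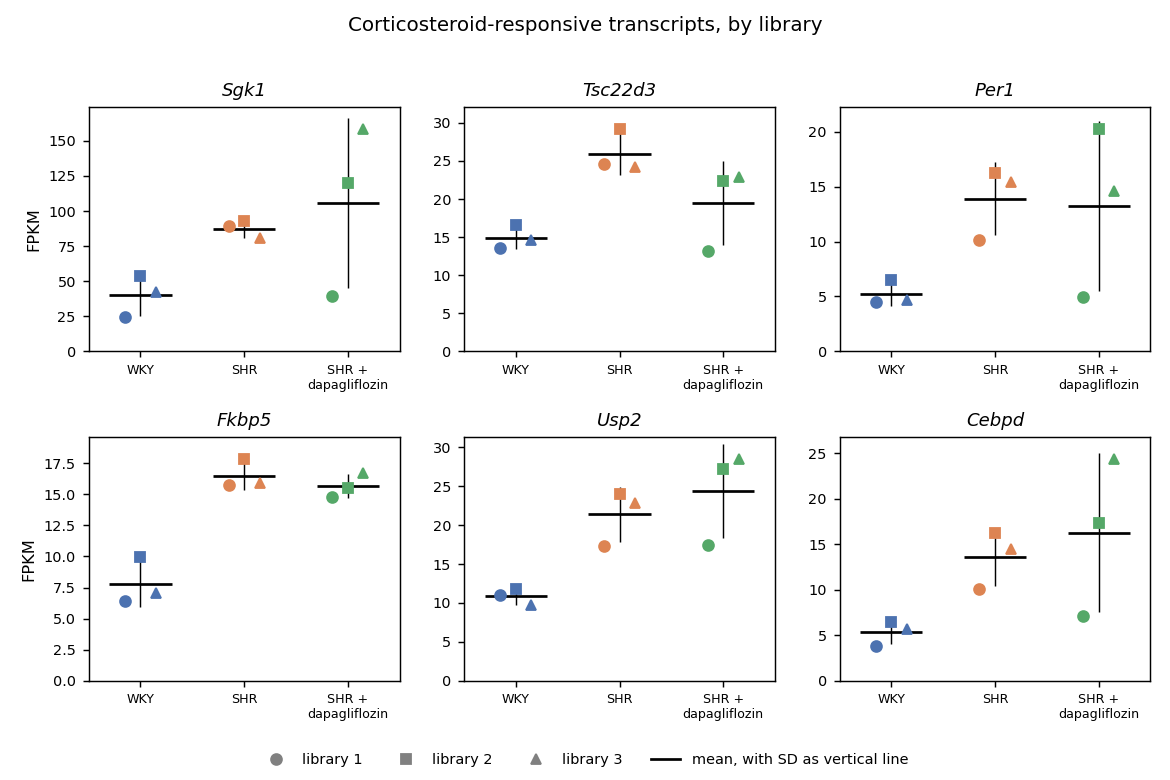
FPKM of Sgk1, Tsc22d3 and 4 other corticosteroid-responsive genes in each library, with group means and SD (n = 3 per group). Treated library 1 (green circle) lies near the WKY level for Sgk1, Tsc22d3 and Per1, and near the other treated libraries for Fkbp5.

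The mineralocorticoid receptor transcript Nr3c2 followed the channel. It measured 7.71, 9.69 and 7.98 FPKM in the WKY libraries, 12.6, 11.1 and 13.6 in SHR off the drug, and 14.7, 18.2 and 22.6 in SHR on it. No groups overlapped. It rose 2.04-fold between treated SHR and WKY (log2 change 1.03, SE 0.15, adjusted p = 0.00601 in limma). Untreated SHR against WKY (1.42-fold, adjusted p = 0.134) and treated against untreated SHR (1.44-fold, adjusted p = 0.281) did not pass.

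The glucocorticoid receptor transcript Nr3c1 lay at 14.2, 12.9 and 14.6 FPKM in the WKY libraries, 14.4, 13.4 and 13.9 in SHR off the drug, and 12.2, 13.3 and 11.9 in SHR on it. Treated libraries were just below all untreated SHR, and WKY overlapped with both. Its log2 change was 0.00 between untreated SHR and WKY (95% interval -0.18 to 0.18), -0.15 between treated and untreated SHR (-0.33 to 0.03) and -0.15 between treated SHR and WKY (-0.32 to 0.03). The sign of the first turned negative with 2 other scalings (-0.073 with median-of-ratios, -0.075 with quantile normalization), and the last passed with each of them (adjusted p = 0.0491 and 0.0474 in limma).

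The FPKM ratio of the 2 receptors differed between the groups. Nr3c2 stood at 0.543, 0.753 and 0.547 times Nr3c1 in WKY, 0.875, 0.823 and 0.981 times in untreated SHR, and 1.21, 1.37 and 1.90 times in treated SHR. The glucocorticoid receptor was the more abundant transcript in all 6 untreated libraries and the mineralocorticoid receptor in all 3 treated ones. Nr3c1 differed little between the groups, so the ratio mostly restates the rise of Nr3c2. Bulk tissue does not show which cells hold either receptor transcript, and the part of cell make-up in this ratio was not tested. The groups did not overlap in any of the 3 comparisons, at an exact two-sided permutation p of 0.1 each, the smallest that 3 against 3 allows.

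Hsd11b2 was the most abundant of the 10 transcripts in each group. It measured 314, 616 and 342 FPKM in the WKY libraries, 569, 495 and 709 in SHR off the drug, and 887, 1245 and 1707 in SHR on it. WKY library 2 lay within the untreated SHR range, and all treated libraries lay above every untreated one. The rise of 3.05-fold between treated SHR and WKY passed (log2 change 1.61, SE 0.30, adjusted p = 0.0121 in limma) but not without WKY library 3 (adjusted p = 0.0555), and the same held for Scnn1a (adjusted p = 0.0555 without it). Against untreated SHR the treated value was 2.11-fold (adjusted p = 0.281), and untreated SHR against WKY gave 1.44-fold (adjusted p = 0.362).

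Hsd11b1, the enzyme isoform that regenerates active corticosterone, measured 373 ± 67.6 FPKM in WKY, 312 ± 47.3 in untreated SHR and 201 ± 102 in treated SHR, and no comparison passed (treated SHR against WKY, adjusted p = 0.0516 in limma). It was singled out after its values were seen. Hsd11b2 stood at 0.774, 2.09 and 0.818 times Hsd11b1 in WKY, 1.94, 1.36 and 2.57 times in untreated SHR, and 2.81, 7.38 and 14.3 times in treated SHR. The treated libraries again lay above all others. Bulk tissue does not show which cells hold either transcript, and the part of cell make-up in this ratio was not tested.

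Ordered by mean FPKM, WKY kidneys ran Hsd11b2, Prss8, Scnn1b, Scnn1a, Sgk1, Scnn1g, Nedd4l, Tsc22d3, Nr3c1 and Nr3c2. The ranges of Scnn1b and Scnn1a, Scnn1a and Sgk1, Sgk1 and Scnn1g, Scnn1g and Nedd4l, and Tsc22d3 and Nr3c1 overlapped, and the other neighbours were apart. Untreated SHR had the same order, with overlap between Scnn1b and Scnn1a, Scnn1a and Sgk1, and Nr3c1 and Nr3c2. In treated SHR Prss8 took rank 4, behind Scnn1b (215 ± 59.8 FPKM) and Scnn1a (169 ± 66.0), at 127 ± 29.8 FPKM, and Nr3c2 (18.5 ± 3.95) stood ahead of Nr3c1 (12.5 ± 0.764). There, neighbours from Scnn1b down to Scnn1g overlapped in their ranges, as did Tsc22d3 and Nr3c2.

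Counted together, 7 of the 10 genes were called between treated SHR and WKY, 6 higher (Scnn1a, Scnn1b, Scnn1g, Nedd4l, Nr3c2 and Hsd11b2) and Prss8 lower, where 22.9% of all genes tested were called. Median-of-ratios scaling and quantile normalization kept the sign of every called gene, while the calls over all genes went from 2211 higher of 3010 to 1445 higher of 2696 and 1581 higher of 2638. Between untreated SHR and WKY 0 of 10 were called, where 2.96% of all genes were. Between treated and untreated SHR 0 of 10 were called by limma, where 0% of all genes were and 1997 genes had an unadjusted p under 0.05. Without treated library 1 that last count became 5 of 10 (Scnn1b, Nedd4l, Nr3c2 and Hsd11b2 higher and Prss8 lower, adjusted p between 0.0344 and 0.0441), where 6.32% of all genes were called. Without WKY library 3 the count for treated SHR against WKY was 4 of 10, where 4.52% of all genes were called.

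Read by overlap of libraries, 6 of 10 genes were separated between untreated SHR and WKY, where 28.4% of all genes were. Between treated and untreated SHR 8 of 10 were separated, 6 higher and 2 lower, where 19.0% of all genes were. Between treated SHR and WKY it was 7 of 10, where 38.6% were. The median log2 change of the 10 genes was 0.62, 0.43 and 1.14 in these 3 comparisons, beside 0.07, 0.04 and 0.11 over all genes.

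**Figure D3:**
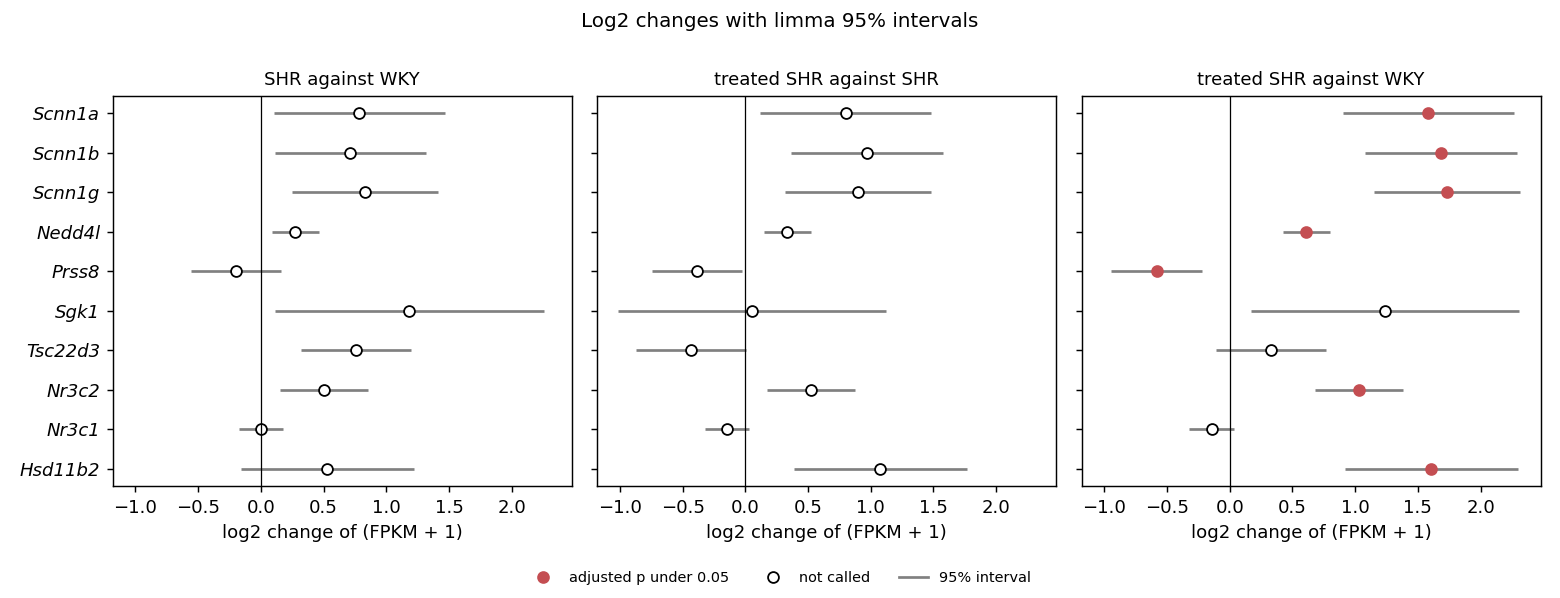
Log2 changes of the 10 genes in the 3 comparisons with limma's 95% intervals; filled points passed at an adjusted p of 0.05. In treated SHR against WKY 7 points are filled, and 0 are in either of the other panels.

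Markers of the cells that carry ENaC moved along with it. The mean log2(FPKM + 1) of 11 principal cell markers ran from 4.97 to 5.41 in WKY, 5.71 to 5.94 in untreated SHR and 6.01 to 6.53 in treated SHR, without overlap. The water channel Aqp2 of these cells measured 191, 385 and 279 FPKM in the WKY libraries, 448, 502 and 519 in SHR off the drug, and 626, 877 and 1168 in SHR on it. Between treated SHR and WKY 9 of the 11 markers rose and 0 fell, with Aqp3 (log2 change 2.23, adjusted p = 0.000813), Fxyd4 (1.40, 0.0039), Elf3 (0.86, 0.00828) and Aqp2 (1.65, 0.00866) at the smallest p in limma. That compares with 22.9% of all genes. With each library left out in turn, 6 (without WKY library 3) to 10 (without treated library 1) of the 11 rose, and these 4 markers passed every time. The remaining marker, St6gal1, had a lower mean in treated SHR (59.95 ± 36.7 FPKM) than in WKY (98.3 ± 29.3). It was called lower without treated library 1 and is named after its values were seen. Of all genes, 4.52% were called without WKY library 3 and 36.5% without treated library 1. Between untreated SHR and WKY Aqp3 and Fxyd4 rose, at 136 ± 1.03 against 45.8 ± 12.3 and 45.8 ± 12.2 against 21.2 ± 3.31 FPKM, and 9 markers did not pass. Over all genes 2.96% were called in that comparison. Fxyd4 lost that call without WKY library 1 or 2 or SHR library 2 (adjusted p between 0.0502 and 0.0792). In treated against untreated SHR 0 of 11 passed, where 0% of all genes were called, and 10 had a higher mean.

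Markers of other segments were counted beside the 22.9% of all genes called between treated SHR and WKY. All 12 intercalated cell markers, which lie in the same tubules but carry proton pumps in place of ENaC, rose between treated SHR and WKY (median log2 change 1.38). Of 11 connecting and distal convoluted tubule markers 9 rose, among them Slc12a3, the thiazide-sensitive cotransporter, at 714 ± 208 against 358 ± 140 FPKM (adjusted p = 0.0393 in limma, groups overlapping). Without WKY library 3 these counts became 7 of 12 and 0 of 11, where 4.52% of all genes were called. All 18 proximal tubule markers had lower means in treated SHR than in WKY, 3 of them called, 0 without WKY library 1 or 3 or treated library 3 and 9 without treated library 1 (median log2 change -1.04), and their list mean was 7.13 to 7.23 in WKY, 6.56 to 7.14 in untreated SHR and 5.71 to 6.44 in treated SHR. Of 8 thick limb markers 1 fell and 0 rose; the lower call was lost without WKY library 3, and 1 rose without WKY library 2 or treated library 1. Of 8 podocyte markers 2 rose, from 0 (without WKY library 1 or 3, or treated library 2 or 3) to 8 (without WKY library 2), and the list mean overlapped between all pairs of groups. With all libraries, the calls for proximal tubule, thick limb and podocyte markers were near or below the share over all genes.

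In bulk tissue, fewer cells of a type and less RNA per cell cannot be told apart, and the part of segment make-up in the changes of the 10 genes was not tested. With the proximal minus thick limb level of each library as a covariate, 0 of the 10 genes were called between treated SHR and WKY, where 0.678% of all genes were; the 7 kept their sign, with log2 changes of 1.28 for Scnn1a, 1.61 for Scnn1b and 1.45 for Hsd11b2. With the principal cell list mean as the covariate instead, also 0 of 10 were called, where 0.168% of all genes were. In that fit 3 of the 7 changed sign (Scnn1a -0.25, Hsd11b2 -0.24 and Prss8 0.33), while Scnn1b came to 0.12, Scnn1g to 0.11, Nr3c2 to 0.15 and Nedd4l to 0.35. That list mean did not overlap between groups, so it and the group cannot be told apart. The urea transporter Slc14a2 of the inner medulla was at 0 to 0.14 FPKM in all libraries, and Upk1b at 0 to 0.29. The other 6 of the 8 listed inner medulla genes passed the filter on low values, with Aqp4 at 9.51 to 47.8 and Crym at 116 to 224 FPKM. The share of inner medulla in the samples was not tested. Of 6 listed adrenal cortex genes in the table, 5 lay below 1 FPKM in every library, among them aldosterone synthase Cyp11b2 at 0.04 to 0.26 FPKM, Cyp11a1 at no more than 0.09 and Star at 0.14 to 0.85. The sixth, the steroid 21-hydroxylase gene Cyp21a1, lay at 1.59 to 6.08 FPKM, with means of 5.26 in WKY, 3.64 in untreated SHR and 2.80 in treated SHR that did not pass in any comparison, and its part in the results was not tested.

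**Figure D4:**
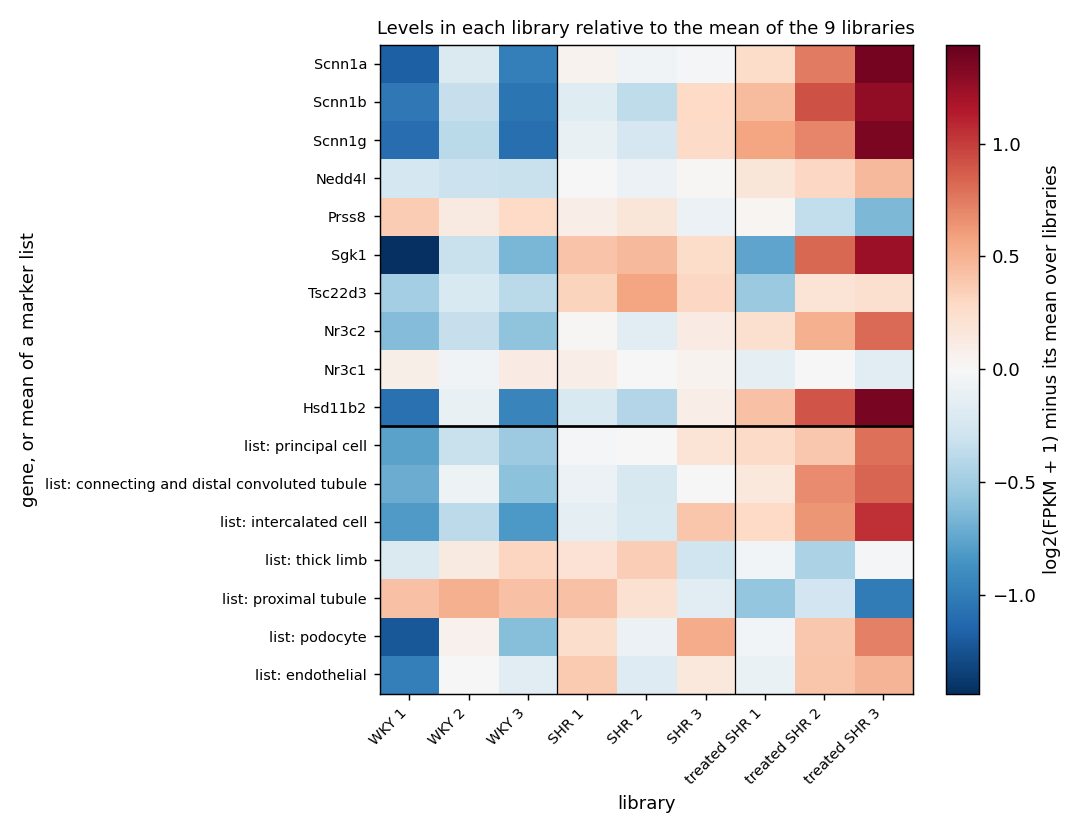
Level of each of the 10 genes and the mean of 7 marker lists in each library, on the log2(FPKM + 1) scale, relative to the mean over the 9 libraries (red higher, blue lower). The subunits, Nr3c2, Hsd11b2 and the principal and intercalated cell lists are blue in WKY and red in treated SHR, the proximal tubule list is red in WKY and blue in treated SHR, and Sgk1 and Tsc22d3 are blue in treated library 1.

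The 10 genes were also set against the principal cell markers of the same library. Nr3c2 kept a constant distance, at -1.96 ± 0.10 log2 units in WKY, -2.05 ± 0.11 in untreated SHR and -1.96 ± 0.09 in treated SHR. Scnn1b stood 0.83 ± 0.26, 0.95 ± 0.23 and 1.496 ± 0.19 above them, and Scnn1g at -0.26 ± 0.25, -0.03 ± 0.16 and 0.45 ± 0.15, so that treated libraries lay above all others for both (exact two-sided permutation p = 0.1 in each comparison with treated SHR). For Scnn1a, at 0.56 ± 0.32, 0.75 ± 0.15 and 1.12 ± 0.29, all groups overlapped. Hsd11b2 stood 3.47 ± 0.34, 3.40 ± 0.17 and 4.05 ± 0.23 above the markers, with treated above untreated SHR but within reach of WKY library 2. Tsc22d3 was lower in treated SHR than in both other groups, at -1.91 ± 0.31 against -1.05 ± 0.23 and -1.21 ± 0.09. Prss8 had means of 2.36 ± 0.34, 1.56 ± 0.25 and 0.75 ± 0.60, with both SHR groups below WKY and overlap between the 2 SHR groups. For Nr3c1 no groups overlapped, at -1.30 ± 0.29, -1.90 ± 0.14 and -2.47 ± 0.32. The marker mean that is subtracted rose from group to group without overlap, so a gene of nearly level FPKM such as Nr3c1 must fall here. The falls of Prss8, Nr3c1 and Nedd4l on this scale thus contain the rise of the markers and are not separate results. Nedd4l, whose FPKM rose, was lower against the markers in treated SHR than in WKY without overlap, at -0.84 ± 0.14 and -0.43 ± 0.25 (exact two-sided permutation p = 0.1), with untreated SHR at -0.75 ± 0.11. Sgk1 was higher in untreated SHR than in WKY without overlap, at 0.67 ± 0.22 and 0.08 ± 0.35 (exact two-sided permutation p = 0.1), and treated SHR overlapped with both at 0.30 ± 0.85.

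**Figure D5:**
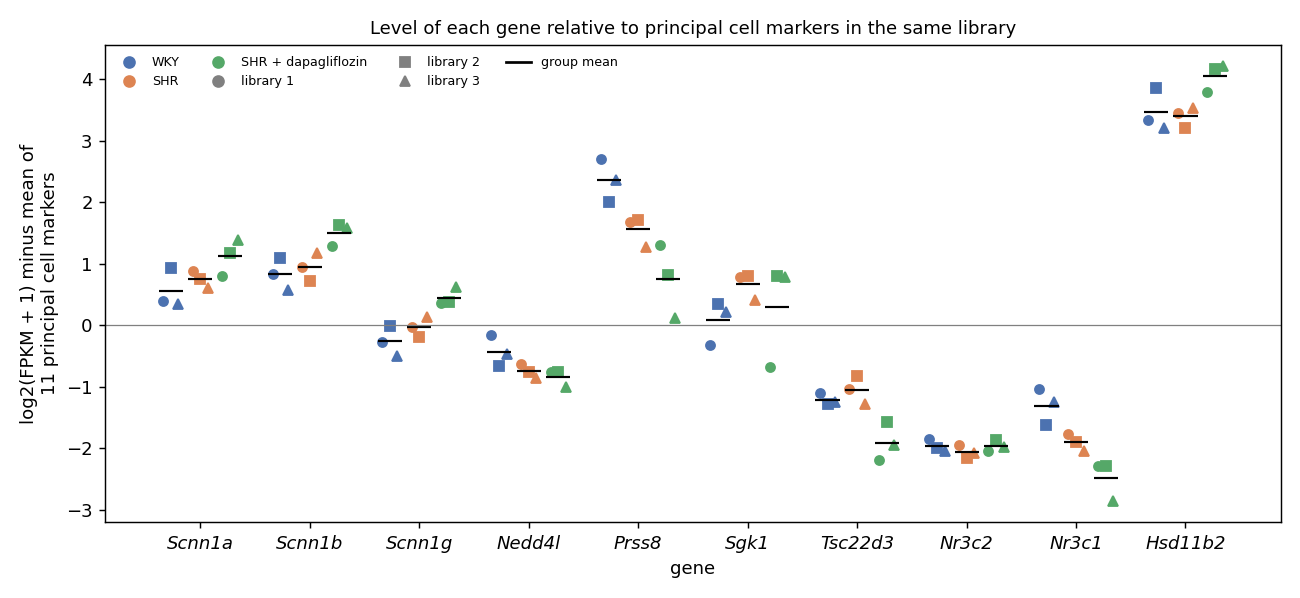
Log2(FPKM + 1) of each gene minus the mean of 11 principal cell markers in the same library, with group means as bars (n = 3 per group). Nr3c2 lies at about the same distance in the 3 groups, at -1.96, -2.05 and -1.96, while Scnn1b and Scnn1g lie higher in all treated libraries than in any other.

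The genes most like the channel subunits over the 9 libraries, by Pearson's r on the log2 scale among 9002 other genes with a mean of at least 5 FPKM, were Sipa1l2, Krt80 and Mal for Scnn1a (r of 0.997, 0.996 and 0.996), Rhcg, Hepacam2 and Tfcp2l1 for Scnn1b (0.995, 0.994 and 0.994), and Muc20, Guca2a and Kit for Scnn1g (0.998, 0.996 and 0.994). Rhcg, an ammonia channel, and Kit are on the intercalated cell list, and Tfcp2l1 is a collecting duct transcription factor on the principal cell list. Hsd11b2 was most like Mboat1, Gsn and Galt (0.998, 0.997 and 0.996), and Nr3c2 most like Boc, Cav1 and Itpr3 (0.996, 0.996 and 0.995). For Nedd4l they were Zdhhc14, Rnpep and Gpr146 (0.992, 0.988 and 0.983). For Sgk1 they were Fbxl12, Uvrag and Rybp (0.984, 0.977 and 0.975), for Tsc22d3 Rcc1l, Mettl14 and Atxn7l3 (0.969, 0.956 and 0.937), and for Nr3c1 Bnip3l, Dusp3 and Cracr2b (0.922, 0.920 and 0.917). These values describe likeness in 9 libraries that share 3 groups, so a gene that differs between groups ranks high.

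Genes that process the channel or spare it from removal were mixed. Of 14 tested genes of ENaC proteolysis and ubiquitin control, 4 rose and 2 fell between treated SHR and WKY, where 22.9% of all genes were called. St14, the membrane protease matriptase, stood at 38.8 ± 8.45 against 19.99 ± 2.003 FPKM (adjusted p = 0.00669 in limma) and Tmprss2, another membrane protease, at 209 ± 53.2 against 103 ± 18.2 (adjusted p = 0.012). The deubiquitinase Usp2, an aldosterone-induced gene whose product removes ubiquitin from ENaC, rose in both SHR groups, at 21.4 ± 3.52 (adjusted p = 0.0412) and 24.4 ± 6.07 FPKM (adjusted p = 0.0102) against 10.9 ± 1.07 in WKY. Usp8 fell in both, at 28.5 ± 1.05 (adjusted p = 0.0291) and 26.9 ± 2.52 (adjusted p = 0.00805) against 39.9 ± 3.53 FPKM. Furin, which cleaves the alpha and gamma subunits, also fell between treated SHR and WKY, at 52.1 ± 4.602 against 67.1 ± 1.58 FPKM (adjusted p = 0.0157), and is named here after its values were seen. So is Spint1, the remaining gene called higher, at 58.6 ± 9.45 against 39.2 ± 3.87 FPKM. Spint1 lost that call without WKY library 1 or 3 or treated library 2 (adjusted p between 0.0511 and 0.0673 in limma). The list's median log2 change in that comparison was 0.06. St14, Usp2 and Usp8 passed there whichever library was left out, and without WKY library 3 the counts were 2 higher and 1 lower, where 4.52% of all genes were called. In untreated SHR against WKY, Usp2 and Usp8 each lost the call without WKY library 1 or 3, any of the SHR libraries or treated library 2 (adjusted p between 0.0541 and 0.167), and Usp2 also without WKY library 2 (0.0607).

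Of 15 kinases and partners upstream of the channel, 4 rose and 0 fell between treated SHR and WKY, where 22.9% of all genes were called, with a median log2 change of 0.15. That count is near the share over all genes. They were Wnk1 (221 ± 62.3 against 105 ± 31.5 FPKM, adjusted p = 0.0193 in limma), Wnk4 (110 ± 30.3 against 59.2 ± 11.7, adjusted p = 0.022), the AMPK subunit gene Prkaa1 (15.2 ± 2.54 against 9.97 ± 0.38, adjusted p = 0.0209) and Mlst8, a subunit of the mTOR complexes (9.75 ± 0.58 against 7.46 ± 0.14, adjusted p = 0.0265). None of the 4 passed without WKY library 1 or 3 or treated library 2 or 3, where the count was 0 of 15. In the other comparisons 0 of 15 passed, where 2.96% (untreated SHR against WKY) and 0% (treated against untreated SHR) of all genes were called.

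Among 24 tested corticosteroid-responsive transcripts, 4 rose and 0 fell between untreated SHR and WKY, where 2.96% of all genes were called; 21 had a higher mean and the median log2 change was 0.25. Fkbp5, a co-chaperone that glucocorticoids induce, stood at 16.5 ± 1.17 against 7.80 ± 1.87 FPKM (adjusted p = 0.006 in limma), Ddit4 at 19.6 ± 5.17 against 7.66 ± 1.34 (adjusted p = 0.0091), and Fxyd4 and Usp2 were the others. Fxyd4 is also counted among the principal cell markers and Usp2 among the ubiquitin control genes, so their calls are not separate results. The count of genes called higher was 2 without WKY library 1, 2 or 3 or SHR library 1 or 2 and 6 without treated library 1, and Fkbp5 passed in each of these fits. Of all genes, 1.27% to 2.96% were called in the former fits and 4.77% in the last. Per1, a clock gene that aldosterone induces, measured 4.50, 6.50 and 4.71 FPKM in the WKY libraries, 10.1, 16.2 and 15.4 in SHR off the drug, and 4.95, 20.3 and 14.6 in SHR on it. Its strain difference did not pass (log2 change 1.25, adjusted p = 0.159), and treated library 1 lay in the WKY range, as for Sgk1. Fkbp5 did not share that spread: the treated libraries measured 14.8, 15.5 and 16.7 FPKM. Between treated SHR and WKY 6 of 24 rose and 1 fell, near the 22.9% called over all genes, with Fxyd4, Fkbp5, Usp2 and Ndrg2 at the smallest p; 3 rose without WKY library 1 or 3 or treated library 2 or 3, and 10 without treated library 1. The gene that fell, Klf15, named after its values were seen, lost the call in 7 of the 9 fits that leave out a library (adjusted p between 0.0582 and 0.128 in limma). Between treated and untreated SHR 0 of 24 passed, where 0% of all genes were called.

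Of 20 receptor chaperones, cofactors and steroid-converting enzymes, Fkbp4, a co-chaperone of the steroid receptors, was the only gene that rose between untreated SHR and WKY (79.1 ± 2.71 against 55.9 ± 5.81 FPKM, adjusted p = 0.0316 in limma), and 0 fell. Over all genes 2.96% were called in that comparison. Between treated SHR and WKY 4 of 20 rose and 0 fell, no larger a share than the 22.9% called over all genes: Fkbp4 (78.7 ± 7.77, adjusted p = 0.0145), the coactivators Ncoa3 (8.16 ± 1.04 against 5.01 ± 0.75, adjusted p = 0.0136) and Ncoa1 (14.6 ± 0.70 against 11.9 ± 0.89, adjusted p = 0.0353), and Mllt3 (5.66 ± 0.61 against 3.89 ± 0.45, adjusted p = 0.0467). Without WKY library 1 or 3 the 4 became 0, without treated library 1 the count of lower calls went from 0 to 3, and Fkbp4 lost its call against WKY in untreated SHR without WKY library 1 or 3, any of the SHR libraries or treated library 2 (adjusted p between 0.057 and 0.144). Of all genes, 6.14%, 4.52% and 36.5% were called between treated SHR and WKY without WKY library 1, WKY library 3 and treated library 1. The median log2 change of the list was 0.07 in untreated SHR against WKY and 0.12 in treated SHR against WKY. The 4 pathway lists and the marker lists were written by hand from general knowledge with earlier results of these data known.

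Among markers of other cells, 1 of 8 endothelial and 1 of 6 leukocyte genes rose between treated SHR and WKY and 0 fell, and of 6 inner medulla genes 1 rose and 1 fell. Over all genes 22.9% were called there, a larger share than that of the endothelial or leukocyte genes. Kidney markers were present in all libraries, with Umod of the thick limb at 1332 to 4616 and Slc34a1 of the proximal tubule at 835 to 1835 FPKM. Deposited FPKM summed to 563643 to 589838 per library over all genes. Library pairs correlated across genes at 0.969 to 0.989 within groups and 0.922 to 0.987 between groups (Pearson's r on the log2 scale, across genes that are not independent replicates). Treated library 1 stood apart from the other treated libraries in Sgk1, Tsc22d3 and Per1, as given beside each, but not in these genes alone. It lay above treated libraries 2 and 3 in Slc3a1 (1724 against 468 and 501 FPKM) and below them in Cebpd (7.10 against 17.4 and 24.4). Leaving it out took the calls between treated and untreated SHR from 0 to 830 of all 13127 genes tested. The labels name no sequencing batch or date. Read totals are unknown, so the precision of a single value is judged from the spread of the 3 libraries alone.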

How the data were processed

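Kidney RNA was isolated with Trizol for 9 libraries (3 WKY, 3 SHR, 3 SHR with dapagliflozin) that were read from one end on the BGIseq500 platform, per the labels' protocols. Per the submitters' processing notes, HISAT2 2.0.4, Bowtie2 2.2.5 and the build Rnor_6.0 were used; their roles, the program that computed expression, the annotation and any filter were not given in the sources used. The deposited values are FPKM computed by the authors, per the file headers, rounded to 2 decimals. Low values of short genes were not whole multiples of a step, so read depth was not recovered. Genes reaching 1 FPKM in 3 or more libraries were tested (13127 of 19367), as log2(FPKM + 1).

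Contrasts were fitted with limma 3.58.1 in R 4.3.3 on all 9 libraries with 1 mean per group, 6 residual degrees of freedom and an intensity trend, two-sided, with Benjamini-Hochberg adjustment over all genes tested and a threshold of 0.05; adjusted p-values in the text are from this model unless another fit is named. The fit was tested on simulated data. Single within-library values were compared by exact permutation. Promoter windows are from RefSeq (GRCr8), matched by gene ID; figures used Python 3.11.15 with matplotlib 3.10.9. Alternatives covered pseudocounts, filters, scalings, the libraries fitted, the variance prior, library weights, a replicate block, covariates and leaving out each library.

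All 10 genes are named. Of the other lists, the called genes are named, at most 4 per list and comparison by smallest p, with Fkbp5, Per1, Aqp2, Aqp3, Fxyd4 and Slc12a3 always; for likeness, the 3 genes of highest r for each gene. The members and the lists were chosen with earlier results of these data known.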

Additional observations from a re-analysis of the deposited data

How the results depend on the processing

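Of the 3 counts of genes called, that of untreated SHR against WKY (0 of 10) was 1 in a fit of only the 2 groups compared and 8 with array weights, and 0 to 2 when 1 library was left out. Of all genes, 3.87% were called in the fit of 2 groups and 1.27% to 4.77% with 1 library left out. The count for treated against untreated SHR (0 of 10) was 7 with array weights and 0 to 5 when 1 library was left out, where 0% to 6.32% of all genes were called. The count for treated SHR against WKY (7 of 10) was 0 with the segment covariate, 0 with the collecting duct covariate (the principal cell list mean, added after the data were examined), and 4 to 9 when 1 library was left out. Of all genes, 0.678% were called with the segment covariate, 0.168% with the collecting duct covariate, and 4.52% to 36.5% with 1 library left out. Array weights called 29.8%, 27.3% and 67.1% of all genes in the 3 comparisons. The other pseudocounts, filters, scalings and variance prior moved none of the 3 counts by over 1.5 times. With a replicate block the counts were 0, 0 and 7. Same-numbered libraries correlated in their deviations from the group mean at -0.33 to 0.46, with 3 of 9 pairs over 0.1. The highest were WKY with treated library 1 (0.46) and WKY with treated library 2 (0.39). These values do not settle whether the numbers pair the libraries, and a shared batch was not tested.

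Signs turned as follows. With the collecting duct covariate the log2 change of untreated SHR against WKY was -0.29 for Scnn1a, -0.20 for Scnn1b, -0.12 for Scnn1g, -0.28 for Sgk1, 0.34 for Prss8, -0.0070 for Nr3c2 and -0.55 for Hsd11b2; that of treated SHR against WKY was -0.25 for Scnn1a, -1.26 for Sgk1, 0.33 for Prss8, 0.049 for Nr3c1, -0.24 for Hsd11b2 and -0.44 for Tsc22d3; and that of treated against untreated SHR was -0.98 for Sgk1. This covariate did not overlap between groups, so it and the group cannot be told apart. Nr3c1 in untreated SHR against WKY was -0.073 with median-of-ratios scaling, -0.075 with quantile normalization, -0.040 with array weights, -0.048 without WKY library 2 and -0.022 without SHR library 1, and -0.048 to 0.037 over the fits that leave out 1 library. Sgk1 in treated against untreated SHR was -0.12 with the segment covariate, -0.0021 without SHR library 3, -0.14 without treated library 2 and -0.34 without treated library 3, and -0.34 to 0.65 over the fits that leave out 1 library. Median-of-ratios scaling took the median change of all genes from 0.11 to -0.01 in treated SHR against WKY. The cause of these turns was not tested. List counts under the same settings were added after the data were examined. Read depth limits every value by an unknown amount.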
